A study of Homo sapiens with 10 samples.

Results

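The genes described here are 10 enzymes that build purine and pyrimidine nucleotides from small precursors. PPAT, PAICS, GART, ATIC and IMPDH2 act on purines, CAD, DHODH, UMPS and CTPS1 on pyrimidines, and NME1 makes nucleoside triphosphates. They were chosen by name, as the rows of the count table whose Ensembl identifier carries 1 of these symbols, and are 10 of 63140 rows. The choice was made with earlier results of these data known. All 10 were among the 16382 genes abundant enough to test. The cells were HS-SY-II, an established human line of synovial sarcoma, a soft tissue tumour driven by an SS18 fusion protein. Cultures received DMSO, or 100 nM WA-68 for 12, 24, 48 or 96 h. WA-68 is a PROTAC, a molecule that brings its target to the cell's protein degradation machinery, here BRD9, a bromodomain subunit of a BAF chromatin remodelling complex. Each of the 5 groups had 2 biological replicates and all 10 libraries came from this single line. When the DMSO cultures were harvested is not in the labels and no inactive analogue of WA-68 was included. All times were set against the same DMSO pair, so time in WA-68 and time in culture cannot be told apart.

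Purine synthesis starts from phosphoribosyl pyrophosphate and assembles the ring on the sugar until inosine monophosphate is made, from which AMP and GMP branch. Pyrimidine synthesis makes the ring first, attaches the sugar to give UMP, and then yields CTP. Dividing tumour cells draw on both routes for RNA and DNA, and several of the genes, CAD among them, are textbook targets of the transcription factor MYC, which binds the E-box letters CACGTG.

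The start regions of the genes were searched for the E-box and other short motifs, as a description with no test. RefSeq windows on GRCh38.p14, from 250 bases before to 50 bases after a start, were found for 9 of the 10 enzymes, in 14 windows; IMPDH2 had no entry. CACGTG, which reads the same on both strands, was present in a window of 5 of these 9 genes, PPAT, PAICS, ATIC, DHODH and NME1, while 7.26% of all 35116 windows and 8.77% of 27305 genes held it. CAD had none in its window, and bases outside the windows were not searched. PPAT and PAICS are read in opposite directions from neighbouring starts 137 bases apart at chr4:56435615 and chr4:56435752. Their windows share 236 bases and 1 and the same E-box, at chr4:56435792-56435797, so the pair counts as a single piece of DNA. ATIC had 2 copies, at positions -46 and 30 from the start. A match describes these letters only, and no binding was measured in these files. The window of PPAT is chr4:56435566-56435865 on the minus strand. Those of ATIC (chr2:215311809-215312108), DHODH (chr16:72008494-72008793) and NME1 (chr17:51153309-51153608) are on the plus strand. Each is printed 5′ to 3′ in the direction of its gene with the E-box in capitals.
PPAT: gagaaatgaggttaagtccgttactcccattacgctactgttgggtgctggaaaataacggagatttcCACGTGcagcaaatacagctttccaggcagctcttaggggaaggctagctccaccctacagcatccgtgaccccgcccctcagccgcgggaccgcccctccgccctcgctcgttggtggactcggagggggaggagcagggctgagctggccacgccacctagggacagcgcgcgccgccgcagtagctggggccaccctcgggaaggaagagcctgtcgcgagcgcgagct
ATIC: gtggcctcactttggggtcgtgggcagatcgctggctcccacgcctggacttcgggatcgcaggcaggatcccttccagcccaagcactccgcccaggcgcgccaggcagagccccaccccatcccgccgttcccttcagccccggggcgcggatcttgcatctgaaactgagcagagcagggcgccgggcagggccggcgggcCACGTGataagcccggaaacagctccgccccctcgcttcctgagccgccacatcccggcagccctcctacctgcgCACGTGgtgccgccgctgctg
DHODH: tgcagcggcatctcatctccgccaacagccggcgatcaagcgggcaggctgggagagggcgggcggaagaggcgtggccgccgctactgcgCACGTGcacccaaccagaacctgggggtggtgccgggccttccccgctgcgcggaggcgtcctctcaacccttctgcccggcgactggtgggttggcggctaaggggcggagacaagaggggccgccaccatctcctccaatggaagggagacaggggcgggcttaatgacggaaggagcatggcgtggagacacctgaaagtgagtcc
NME1: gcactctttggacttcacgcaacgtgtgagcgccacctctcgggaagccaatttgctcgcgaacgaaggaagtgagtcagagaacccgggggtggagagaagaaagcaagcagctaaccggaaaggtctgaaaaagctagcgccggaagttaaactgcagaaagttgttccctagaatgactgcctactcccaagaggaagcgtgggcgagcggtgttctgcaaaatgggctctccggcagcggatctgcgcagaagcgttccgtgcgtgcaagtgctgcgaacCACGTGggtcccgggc
CCGGAAG, the core of many ETS family sites, was searched on both strands and was present for GART and NME1 (10.3% of all windows and 12.2% of genes). GCATGCG, part of the motif of the factor NRF1, was present for CTPS1 in overlapping forward and reverse copies (3.91% of all windows and 4.74% of genes).

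Total counts per library ran from 7349744 to 13200051. Replicates of a group differed in step with the GC content of genes, most in DMSO. Spearman's rho across 15694 genes, between GC content and the log2 difference of replicate 2 from replicate 1, was -0.06 at 12 h, -0.17 at 24 h, -0.29 at 48 h, 0.29 at 96 h and 0.57 in DMSO. Such a difference does not show which replicate of a pair is the odd one. GC content was that of each gene's longest transcript and ran, among the enzymes, from 33.8% for PPAT to 57.7% for CAD. Between the DMSO replicates the enzymes' log2 difference ran from -0.38 for PPAT to 0.52 for IMPDH2, with a median of 0.04. The 6 markers fixed for the synovial sarcoma line summed to between 749.7 and 886 CPM in every library, while 4 leukocyte markers summed to at most 0.224 CPM and 3 endothelial markers to at most 0.187 CPM. The 5 epithelial markers summed to between 2.05 and 8.14 CPM. In bulk RNA, fewer cells that use a gene and less RNA per cell cannot be told apart.

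All 10 enzymes had lower mean RNA levels after WA-68 than in DMSO at all 4 times, and the number that passed the test grew with time. Levels are CPM, read counts divided by the library total after TMM scaling (trimmed mean of M values), and a gene was called at an adjusted p under 0.05 (edgeR's quasi-likelihood test on all 10 libraries, Benjamini-Hochberg over 16382 genes). At 12 h 3 enzymes fell, against a background of 1.92% of all tested genes called lower. At 24 h 4 fell, against 2.25%. At 48 h 7 fell, against 5.38%. At 96 h 9 fell, against 6.86%, and IMPDH2 alone did not pass the test. The rise of these counts is not a test of time, since the adjustment is looser where more genes changed. CTPS1 at 24 h was not called at an unadjusted p of 0.00285 (edgeR), while DHODH at 96 h was called at 0.00307. No enzyme was called higher at any time. Of all genes 1.23% were called higher at 12 h, 1.34% at 24 h, 4.01% at 48 h and 6.14% at 96 h. The estimates of all 10 enzymes were below 0 at each time, while those of 50.4%, 50.1%, 51.2% and 51.2% of all genes were. The median log2 fold change of the 10 was -0.27 at 12 h, -0.34 at 24 h, -0.39 at 48 h and -0.43 at 96 h, while that of all tested genes stayed within 0.01 of 0. Both WA-68 libraries lay below both DMSO libraries for 9 enzymes at 12 h, 9 at 24 h, 10 at 48 h and 9 at 96 h, where 22.1%, 23%, 25.2% and 25% of all tested genes did so. In a joint test of the 4 times against DMSO 7 of the 10 enzymes were called, against 10.9% of all genes, and IMPDH2, UMPS and DHODH were not. The enzymes were chosen with earlier results of these data known. The shares of all genes are therefore a description, not a test of the set. The counts depended on single libraries. Leaving out either 12 h library left 0 calls at 12 h, and leaving out 24 h replicate 1 or 2 left 1 or 0 at 24 h. Leaving out 48 h replicate 1 or 2 left 4 or 2 at 48 h, and leaving out 96 h replicate 1 left 5 at 96 h.

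**Figure D1:**
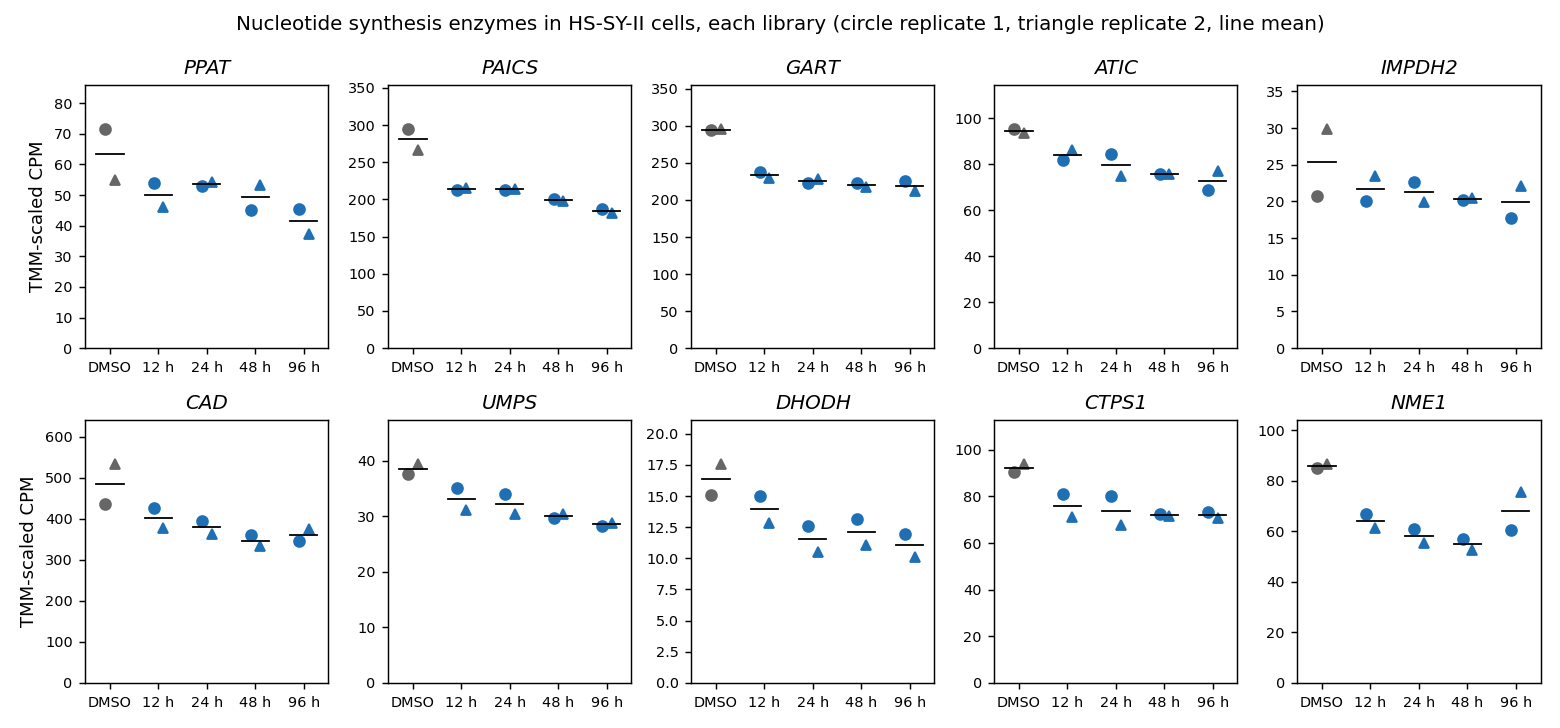
TMM-scaled CPM (y axis, starting at 0, one panel per enzyme) in each of the 10 libraries, by group (x axis: DMSO, then WA-68 for 12, 24, 48 and 96 h); circles are replicate 1, triangles replicate 2 and lines the group mean. For 9 enzymes both 96 h libraries lie below both DMSO libraries, and for IMPDH2 the 96 h value of 22.2 CPM lies above the lower DMSO value of 20.8 CPM.

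The purine enzymes PAICS and GART fell at all 4 times, and their 96 h calls held in every fit tried. PAICS, which carries out consecutive steps in the middle of the purine route (Ensembl ENSG00000128050, chr4:56435741-56464579, plus strand, GRCh38), was counted at 295 and 266 CPM in DMSO, 213 and 216 CPM at 12 h, 212 and 215 CPM at 24 h, 201 and 198 CPM at 48 h, and 187 and 182 CPM at 96 h. All 8 WA-68 libraries lay below both DMSO libraries, and the lowest pair was the 96 h one. The log2 fold change was -0.39 at 12 h (adjusted p = 0.0121, edgeR), -0.40 at 24 h (adjusted p = 0.0098), -0.49 at 48 h (adjusted p = 0.00078) and -0.60 ± 0.0871 at 96 h (SE, adjusted p = 4.16e-05), a 1.52-fold lower level. GART, a protein with several enzyme activities of the early purine route (ENSG00000159131, chr21:33503931-33543491, minus strand), had 294 and 296 CPM in DMSO, 238 and 229.9 CPM at 12 h, 223 and 229 CPM at 24 h, 223 and 217 CPM at 48 h, and 225 and 212 CPM at 96 h. Its DMSO replicates were close to each other, and the WA-68 libraries formed a separate, narrow band. The log2 fold change was -0.33 at 12 h (adjusted p = 0.0287), -0.39 at 24 h (adjusted p = 0.00991), -0.42 at 48 h (adjusted p = 0.00229) and -0.43 ± 0.0847 at 96 h (SE, adjusted p = 0.00108). The calls of PAICS at 48 h and 96 h and of GART at 96 h held with any single library left out. The earlier calls did not. PAICS lost its call without either 12 h library or DMSO replicate 1 at 12 h (adjusted p up to 0.177) and without either 24 h library at 24 h (up to 0.15). GART lost its call without either 12 h library, either 24 h library or DMSO replicate 2 at 12 h (up to 0.308), without either 24 h library at 24 h (up to 0.172) and without 48 h replicate 2 at 48 h (0.0615).

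PPAT, the amidotransferase that commits the cell to purine synthesis (ENSG00000128059, chr4:56393362-56435615, minus strand), had 71.7 and 55.0 CPM in DMSO, 53.9 and 46.1 CPM at 12 h, 53.1 and 54.3 CPM at 24 h, 45.2 and 53.3 CPM at 48 h, and 45.6 and 37.2 CPM at 96 h. The DMSO replicates differed more than those of PAICS, and the nearest WA-68 value was 54.3 CPM, just below the lower DMSO one. PPAT was not called at 12, 24 or 48 h (log2 fold changes of -0.35, -0.25 and -0.37, adjusted p between 0.0621 and 0.323, edgeR) and fell by 96 h (-0.61 ± 0.127, SE, adjusted p = 0.00185), to 65.4% of its DMSO mean. Without DMSO replicate 1, the higher control, the 96 h adjusted p was 0.0508. Its neighbour PAICS stood at 65.9% of its DMSO mean at 96 h. ATIC, which closes the purine ring (ENSG00000138363, chr2:215311817-215349773, plus strand), had 95.4 and 93.5 CPM in DMSO, 81.8 and 86.2 CPM at 12 h, 84.3 and 74.9 CPM at 24 h, 75.9 CPM in both 48 h libraries, and 68.7 and 77.0 CPM at 96 h. All WA-68 values lay below both controls. The decrease passed the test at 48 h (log2 fold change -0.32, adjusted p = 0.0341) and 96 h (-0.38 ± 0.0941, SE, adjusted p = 0.00799) and not at 12 h (-0.17, adjusted p = 0.397) or 24 h (-0.25, adjusted p = 0.153). The 96 h call of ATIC was lost without 96 h replicate 1 (adjusted p = 0.123), and the 48 h call without DMSO replicate 1 or any single 12, 24 or 48 h library (up to 0.226). IMPDH2, which turns IMP towards GMP together with its paralog IMPDH1 (ENSG00000178035, chr3:49024325-49029408, minus strand), had 20.8 and 29.9 CPM in DMSO, 20.01 and 23.4 CPM at 12 h, 22.6 and 19.9 CPM at 24 h, 20.2 and 20.5 CPM at 48 h, and 17.8 and 22.2 CPM at 96 h. The WA-68 values clustered near the lower control, and the groups overlapped at 12, 24 and 96 h. Its 96 h log2 fold change was -0.34 ± 0.157 (SE, 95% interval -0.66 to -0.01, adjusted p = 0.175), and without DMSO replicate 2 the sign turned at 12 h (0.06) and 24 h (0.03).

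The pyrimidine enzymes passed the test at 48 h or 96 h, and CAD also at 24 h. Whether the timing differed between genes was not tested. CAD, the multifunctional protein of the opening steps of the route (ENSG00000084774, chr2:27217390-27243943, plus strand), had 435 and 534 CPM in DMSO, 426 and 378 CPM at 12 h, 394 and 363 CPM at 24 h, 359.7 and 334 CPM at 48 h, and 344 and 376 CPM at 96 h. The controls lay far apart, yet all 8 WA-68 values were below the lower one. CAD was not called at 12 h (log2 fold change -0.27, adjusted p = 0.161, edgeR) and fell at 24 h (-0.35, adjusted p = 0.0451), 48 h (-0.48, adjusted p = 0.003) and 96 h (-0.43 ± 0.0991, SE, adjusted p = 0.00465). Without DMSO replicate 2, the higher control, its adjusted p was 0.0637 at 96 h. The 24 h call was lost without that library or any single 12, 24 or 48 h library (up to 0.425), and the 48 h call without 48 h replicate 2 (0.0875). DHODH, the mitochondrial enzyme that makes orotate (ENSG00000102967, chr16:72008588-72027664, plus strand), was the least abundant, with 15.1 and 17.6 CPM in DMSO, 15.0 and 12.9 CPM at 12 h, 12.6 and 10.5 CPM at 24 h, 13.2 and 11.1 CPM at 48 h, and 12.0 and 10.1 CPM at 96 h. Its first 12 h value almost touched the lower control, and the others lay clearly below. DHODH fell at 96 h (-0.54 ± 0.163, SE, adjusted p = 0.029) and was not called at 12, 24 or 48 h (-0.22, -0.50 and -0.41, adjusted p between 0.0859 and 0.555). The call was lost without DMSO replicate 2 or 96 h replicate 2 (adjusted p up to 0.165) and with both left out (-0.33, adjusted p = 0.306).

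UMPS, which turns orotate into UMP (ENSG00000114491, chr3:124730366-124749273, plus strand), had 37.5 and 39.5 CPM in DMSO, 35.0 and 31.1 CPM at 12 h, 34.0 and 30.4 CPM at 24 h, 29.7 and 30.5 CPM at 48 h, and 28.3 and 28.8 CPM at 96 h. Replicates of UMPS were close at 48 and 96 h, where its values were lowest. It fell at 48 h (log2 fold change -0.35, adjusted p = 0.0464, edgeR) and 96 h (-0.43 ± 0.112, SE, adjusted p = 0.0108) and was not called at 12 h (-0.22) or 24 h (-0.26). CTPS1, the CTP synthase of proliferating cells (ENSG00000171793, chr1:40979335-41012565, plus strand), had 90.4 and 94.1 CPM in DMSO, 80.8 and 71.2 CPM at 12 h, 80.0 and 67.6 CPM at 24 h, 72.6 and 71.7 CPM at 48 h, and 73.4 and 70.9 CPM at 96 h. No WA-68 library of CTPS1 reached either control. It fell at 48 h (-0.35, adjusted p = 0.023) and 96 h (-0.35 ± 0.0977, SE, adjusted p = 0.017), and was not called at 12 h (-0.28, adjusted p = 0.136) or 24 h (-0.32, adjusted p = 0.0639). Its paralog CTPS2, which has the same activity, was called at no time, with log2 fold changes of 0.05, -0.04, 0.09 and 0.11 from 12 to 96 h. The difference between the paralogs was not tested. Single libraries ended the calls of UMPS at 96 h (without 96 h replicate 1, adjusted p = 0.0687) and at 48 h (without DMSO replicate 2 or any single 12, 24 or 48 h library, up to 0.221). Those of CTPS1 were lost at 96 h (without either 96 h library, up to 0.0814) and 48 h (without DMSO replicate 2 or either 48 h library, up to 0.198).

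NME1 was lowest at 48 h. This nucleoside diphosphate kinase (ENSG00000239672, chr17:51153536-51162428, plus strand) had 85.1 and 86.8 CPM in DMSO, 67.0 and 61.2 CPM at 12 h, 60.8 and 55.2 CPM at 24 h, 57.0 and 52.5 CPM at 48 h, and 60.3 and 75.4 CPM at 96 h. Both 96 h libraries lay above both 48 h ones, as did those of 20.2% of all genes. The log2 fold change against DMSO was -0.42 at 12 h (adjusted p = 0.0235, edgeR), -0.57 at 24 h (adjusted p = 0.00221), -0.65 ± 0.105 at 48 h (SE, adjusted p = 0.000354) and -0.35 ± 0.103 at 96 h (SE, adjusted p = 0.0255). The step from 48 to 96 h was 0.30 ± 0.108 (SE, 95% interval 0.08 to 0.52) and did not pass the test over all genes (adjusted p = 0.424). Over the alternatives the step ran from 0.14 without 96 h replicate 2 to 0.46 without 96 h replicate 1. The 48 h call held with any single library left out. The others were lost without either 12 h library at 12 h (adjusted p up to 0.324), 24 h replicate 2 at 24 h (0.119) and 96 h replicate 1 at 96 h (0.373). NME1 lies beside NME2, a near-identical kinase, and a readthrough gene, NME1-NME2, overlaps both. Reads can be split between them in ways the sources used here do not state, so the values of NME1 and NME2 are uncertain. NME2 fell at 48 h (-0.46, adjusted p = 0.0178) and 96 h (-0.57, adjusted p = 0.00237), calls that were lost without 48 h replicate 2 or DMSO replicate 2 (up to 0.334) and without 96 h replicate 1 (0.0785).

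**Figure D2:**
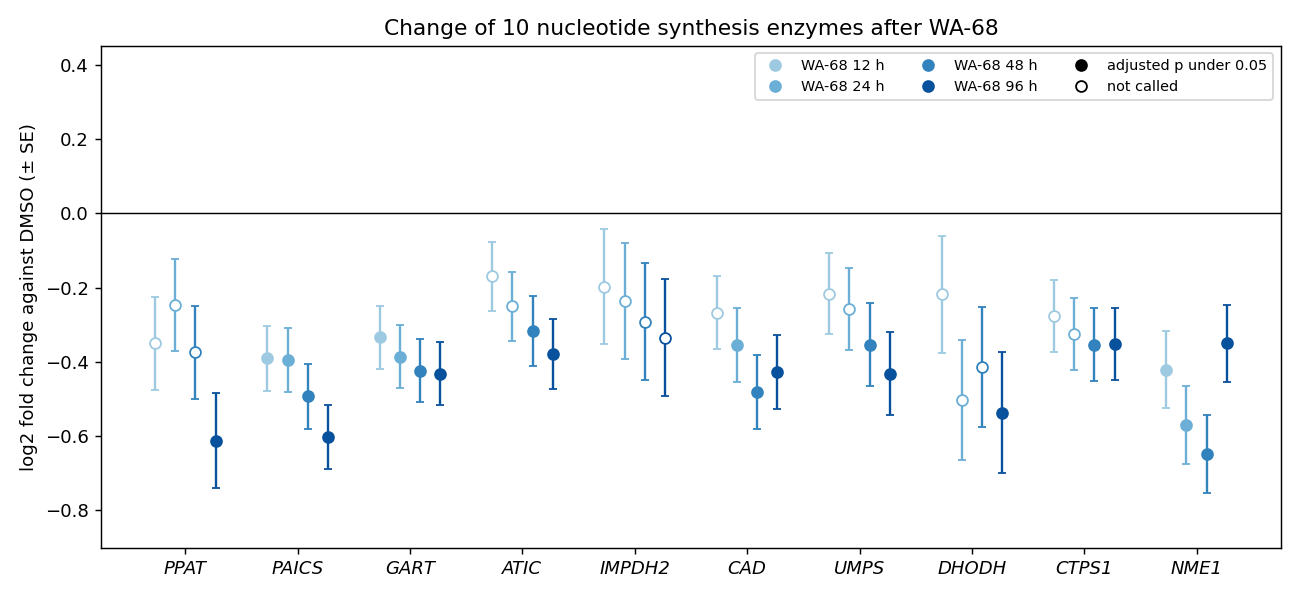
Log2 fold change against DMSO (y axis, ± SE) for each enzyme (x axis) at 12, 24, 48 and 96 h. All 40 estimates lie below 0; PPAT and PAICS reach the lowest values at 96 h (-0.61 and -0.60), and NME1 reaches its lowest value at 48 h (-0.65).

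Per kilobase of exon, which allows levels of different genes to be set side by side, the order of the enzymes was the same at 96 h and in DMSO. CAD was highest, at 42.8 ± 2.64 CPM per kb at 96 h and 57.5 ± 8.38 CPM per kb in DMSO (SD, n = 2 each). GART followed with 28.2 ± 1.23 at 96 h and 38.1 ± 0.205 in DMSO, then PAICS with 24.6 ± 0.474 at 96 h and 37.3 ± 2.7 in DMSO, all in CPM per kb. The middle of the order held NME1 (19.7 ± 3.1 at 96 h and 25.0 ± 0.341 in DMSO) and ATIC (18.6 ± 1.5 at 96 h and 24.1 ± 0.349 in DMSO), followed by PPAT (7.61 ± 1.09 at 96 h and 11.6 ± 2.17 in DMSO). The lower end was IMPDH2 (7.21 ± 1.12 at 96 h and 9.13 ± 2.33 in DMSO), CTPS1 (6.26 ± 0.156 at 96 h and 8.01 ± 0.227 in DMSO), UMPS (3.76 ± 0.0455 at 96 h and 5.08 ± 0.181 in DMSO) and DHODH (1.6 ± 0.192 at 96 h and 2.36 ± 0.259 in DMSO). In DMSO the replicates of GART and PAICS, of PPAT and IMPDH2, and of IMPDH2 and CTPS1 overlapped, and at 96 h those of NME1 and ATIC and of PPAT and IMPDH2 did, so the order within these pairs is not settled. Exon lengths are those of the union of GENCODE 29 exons and not of the transcripts in use.

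Between WA-68 times no enzyme passed the test. At 24 h against 12 h the test called 0 of the 10, where it called 0% of all genes. At 48 h against 24 h it called 0, against 0.757% of all genes. At 96 h against 48 h it called 0, against 0.0366%. At 96 h against 12 h it called 0 of the 10, against 4.13% of all genes. DESeq2 and limma-voom also called 0 in all 4 comparisons. At an unadjusted p under 0.05 edgeR had 0, 0, 1 and 2 enzymes in these comparisons, limma-voom 0, 0, 1 and 2, and DESeq2 0, 0, 1 and 1. In edgeR the enzyme in 96 h against 48 h was NME1, and those in 96 h against 12 h were PAICS and ATIC. The share of all genes under this unadjusted threshold was not counted, so these counts have no background beside them. The median log2 fold change of the 10 at 96 h against 12 h was -0.18, with 9 below 0, as were 51.8% of all genes. NME1 was at 0.07, and at -0.09 without 96 h replicate 2. For 7 enzymes 96 h libraries lay below both 12 h ones, as they did for 25.3% of all genes.

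The remaining genes of purine synthesis were a list of 14. At 12, 24, 48 and 96 h against DMSO 1, 1, 5 and 7 of them were called lower and 0, 0, 0 and 1 higher, with medians of -0.18, -0.16, -0.25 and -0.27. Among all tested genes 1.92%, 2.25%, 5.38% and 6.86% were called lower at these times and 1.23%, 1.34%, 4.01% and 6.14% higher. Whether this or any list below differed from all genes was not tested. PFAS, which acts between steps of GART on the way to inosine monophosphate, had the lowest joint p of the list. It had 142 and 165 CPM in DMSO, 123 and 111 CPM at 12 h, 105 and 104 CPM at 24 h, 103 and 100.2 CPM at 48 h, and 93.1 and 102 CPM at 96 h. All WA-68 values of PFAS lay below both controls. It fell at all 4 times, with log2 fold changes of -0.38 (adjusted p = 0.0258, edgeR), -0.55 (0.00155), -0.59 (0.000354) and -0.65 ± 0.0966 (SE, 5.7e-05), and its 48 h and 96 h calls held without any single library. The 12 h call of PFAS was lost without either 12 h library, DMSO replicate 2 or 24 h replicate 2 (up to 0.376) and the 24 h call without 24 h replicate 2 (0.0631). IMPDH1 was the more abundant of the IMPDH paralogs, at 37.7 ± 1.99 CPM per kb at 96 h and 50.5 ± 7.11 CPM per kb in DMSO (SD, n = 2 each), where IMPDH2 had 7.21 and 9.13 CPM per kb. IMPDH1 fell at 48 h (-0.43, adjusted p = 0.0121) and 96 h (-0.42, adjusted p = 0.0102), and not without DMSO replicate 2 (or without 48 h replicate 2 at 48 h or 96 h replicate 1 at 96 h, up to 0.242). ADSS1, the adenylosuccinate synthase known from muscle, rose at 96 h (0.98, adjusted p = 0.0441) from a very low level: it had 4.96 and 2.95 CPM at 96 h and 2.02 and 2.13 CPM in DMSO. Its call was lost without either DMSO library, either 24 h library, 48 h replicate 1 or 96 h replicate 1 (up to 0.498). GUK1, the guanylate kinase, was called in the joint test and at no single time. Over the alternatives the list's count of genes called lower ran from 1 to 9 at 48 h and from 1 to 8 at 96 h. Leaving out 48 h replicate 2 left 1 at 48 h, and leaving out 96 h replicate 1 left 1 at 96 h. Without any other single 12, 24 or 48 h library the 48 h count was 2, and without either 12 h library, 24 h replicate 2 or 96 h replicate 2 the 96 h count was 4. For the 7 tested kinases and synthases of the pyrimidine and triphosphate steps, 0, 0, 2 and 1 were called lower at the 4 times and 0 higher, with medians of 0.04, -0.14, 0.03 and -0.12. These counts moved with single libraries. At 24 h the count was 2 without DMSO replicate 1, and at 48 h it was 0 without DMSO replicate 2 or 48 h replicate 2 and 1 without any other single 12, 24 or 48 h library. At 96 h it was 0 without 96 h replicate 1 and 2 without DMSO replicate 1 or 96 h replicate 2, and at 12 h it was 1 without DMSO replicate 1 or either 96 h library.

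Folate-bound carbon units enter the purine ring, and a list of 18 tested genes covers their supply, serine synthesis, folate transport and ATF4, a transcription factor that drives serine synthesis genes. Of these 2, 3, 8 and 8 were called lower at 12, 24, 48 and 96 h and 0 higher, with medians of -0.17, -0.26, -0.30 and -0.24. The shares of all tested genes were 1.92%, 2.25%, 5.38% and 6.86% lower and 1.23%, 1.34%, 4.01% and 6.14% higher. MTHFD1L, the mitochondrial enzyme that releases formate, had 24.4 and 25.7 CPM in DMSO, 19.1 and 15.9 CPM at 12 h, 14.4 and 16.9 CPM at 24 h, 15.3 and 15.0 CPM at 48 h, and 15.0 and 11.9 CPM at 96 h. It fell at all 4 times, with a 96 h log2 fold change of -0.87 ± 0.145 (SE, adjusted p = 0.000212, edgeR). SLC19A1, the reduced folate carrier, had 88.2 and 98.0 CPM in DMSO, 72.3 and 61.6 CPM at 12 h, 71.3 and 61.0 CPM at 24 h, 57.3 and 53.7 CPM at 48 h, and 54.3 and 60.2 CPM at 96 h. It also fell at all 4 times, with log2 fold changes of -0.47 (adjusted p = 0.0113), -0.49 (0.00716), -0.74 (9.96e-05) and -0.70 (6.49e-05). The serine enzymes PHGDH (-0.52 at 96 h, adjusted p = 0.00202) and PSAT1 (-0.56 at 96 h, adjusted p = 0.000834) fell at 48 and 96 h, and PHGDH also at 24 h. At 96 h the calls of these 4 genes held without any single library. At 12 h MTHFD1L lost its call without any single library of DMSO, 12, 24 or 48 h (adjusted p up to 0.462) and SLC19A1 without 12 h replicate 2 (0.294). The 24 h calls were lost without 24 h replicate 1 for MTHFD1L (0.164), without 24 h replicate 2 for SLC19A1 (0.28) and without either 24 h library, DMSO replicate 2 or 12 h replicate 2 for PHGDH (up to 0.338). At 48 h the calls were lost without 48 h replicate 2 for PHGDH (0.109) and without either 48 h library or DMSO replicate 1 for PSAT1 (up to 0.153). The list's count was 0 at 12 h without 12 h replicate 2 and 1 without 12 h replicate 1 or any single 24 or 48 h library. At 24 h it was 1 without either 24 h library and 6 without either 96 h library. At 48 h it was 4 without 48 h replicate 1 and 2 without 48 h replicate 2.

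The list for deoxynucleotides, the DNA precursors, holds genes that make them and SAMHD1, which breaks them down, and it had no call at 12 or 24 h. Of 8 tested, 0, 0, 2 and 2 were called lower at 12, 24, 48 and 96 h and 0, 0, 0 and 1 higher, and the median log2 fold change was 0.11, 0.01, -0.24 and -0.20. Among all tested genes 1.92%, 2.25%, 5.38% and 6.86% were called lower and 1.23%, 1.34%, 4.01% and 6.14% higher. TYMS, the thymidylate synthase, had 308 and 337 CPM in DMSO, 371 and 329 CPM at 12 h, 329 and 321 CPM at 24 h, 254 and 236 CPM at 48 h, and 268 and 263 CPM at 96 h. Its 12 and 24 h values were in or above the DMSO range and its 48 and 96 h values below it. TYMS was not called at 12 h (0.12) or 24 h (0.01) and fell at 48 h (-0.40, adjusted p = 0.00613, edgeR) and 96 h (-0.28, adjusted p = 0.037). Its level was also lower at 48 h than at 24 h (-0.41, adjusted p = 0.0293) and at 96 h than at 12 h (-0.40, adjusted p = 0.00959). RRM1 and RRM2, the large and small subunits of ribonucleotide reductase, were lower at 96 h than at 12 h (-0.37 each, adjusted p = 0.0347 and 0.0216). RRM1 was below DMSO at 48 h (-0.31, adjusted p = 0.046) and 96 h (-0.33, adjusted p = 0.0264). The gene called higher was SAMHD1, which rose at 96 h (0.36, adjusted p = 0.0136), a call lost without DMSO replicate 2 or 96 h replicate 2 (up to 0.112). Most of these calls rested on single libraries. TYMS lost its 48 h call without 48 h replicate 2 (0.142) and its 96 h call without DMSO replicate 2, 48 h replicate 2 or any single 12, 24 or 96 h library (up to 0.142). Its call of 48 h against 24 h was lost without any single 12, 24 or 48 h library (up to 0.44) and that of 96 h against 12 h without 12 h replicate 1 (0.283). RRM2 lost its call against 12 h without 12 h replicate 1 or 96 h replicate 2 (up to 0.429), and RRM1 without any single WA-68 library (up to 0.515). RRM1 lost its 48 h call without DMSO replicate 1 or any single 12, 24 or 48 h library (up to 0.234). Its 96 h call was lost without DMSO replicate 1, 24 h replicate 2 or either 96 h library (up to 0.193).

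Salvage enzymes, which recover bases and nucleosides, numbered 13, and 1, 0, 4 and 7 were called lower at 12, 24, 48 and 96 h with 0 higher, the medians being -0.19, -0.22, -0.26 and -0.39. The shares of all tested genes were 1.92%, 2.25%, 5.38% and 6.86% lower and 1.23%, 1.34%, 4.01% and 6.14% higher. APRT, which recovers adenine, had 30.1 CPM in both DMSO libraries, 32.2 and 31.3 CPM at 12 h, 26.8 and 25.0 CPM at 24 h, 22.9 and 23.2 CPM at 48 h, and 21.0 and 18.9 CPM at 96 h. APRT started at or above the controls and was lowest at 96 h. It fell at 48 h (-0.39, adjusted p = 0.0371, edgeR) and 96 h (-0.58, adjusted p = 0.00142), and it was lower at 96 h than at 12 h (-0.66, adjusted p = 0.00161). The last 2 calls held without any single library, and the 48 h call was lost without any single DMSO, 12, 24 or 48 h library (up to 0.208). UCK2, the uridine-cytidine kinase, fell at 48 h (-0.42, adjusted p = 0.00739) and 96 h (-0.49, adjusted p = 0.00119). PNP, the purine nucleoside phosphorylase, fell at 12 h (-0.45, adjusted p = 0.0313), 48 h (-0.49, adjusted p = 0.00849) and 96 h (-0.41, adjusted p = 0.0196). Without either library of the time in question the calls of UCK2 at 48 h (up to 0.0917) and of PNP at 12 h (up to 0.472, also without DMSO replicate 2), 48 h (up to 0.102) and 96 h (up to 0.096) were lost. TK1, the thymidine kinase of dividing cells, had 74.2 and 61.8 CPM at 12 h and 53.5 and 55.3 CPM in DMSO, without passing the test (0.32, adjusted p = 0.102). TK1 fell below DMSO at 48 h (-0.42, adjusted p = 0.0178, edgeR), a call lost without either 48 h library. It was lower at 48 h than at 24 h (-0.56, adjusted p = 0.0142) and at 96 h than at 12 h (-0.53, adjusted p = 0.0044), and these calls were lost without any single 24 or 48 h library (up to 0.427) and without 12 h replicate 1 (0.218). The list's count at 96 h was 2 without 96 h replicate 2 and 3 without DMSO replicate 1, and that at 48 h was 0 without either 48 h library. At 12 h it was 0 without either 12 h library or DMSO replicate 2, and at 24 h it was 2 without either DMSO library.

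From 12 to 96 h 1.92%, 2.25%, 5.38% and 6.86% of all tested genes were called lower and 1.23%, 1.34%, 4.01% and 6.14% higher. The breakdown list had 9 tested genes, with 1 called lower at each time and 0 higher. The call was for AMPD2, an AMP deaminase, at -0.42, -0.43, -0.43 and -0.42 from 12 to 96 h (adjusted p between 0.0102 and 0.0287, edgeR). DMSO replicate 2 was its highest library, and none of its calls held without it (adjusted p up to 0.338 without 1 library). NUDT1, which clears oxidised nucleotides, was called in the joint test (adjusted p = 0.0268) and at no single time. It had 17.2 and 16.8 CPM in DMSO, 20.7 and 19.5 CPM at 12 h, 16.5 and 15.8 CPM at 24 h, 13.6 and 11.6 CPM at 48 h, and 15.6 and 15.3 CPM at 96 h, highest at 12 h and lowest at 48 h. Of 3 tested nucleoside transporters 1 was called lower at each time, SLC29A1, the main equilibrative carrier. It had 74.5 and 75.9 CPM in DMSO, 55.9 and 56.5 CPM at 12 h, 51.1 and 50.2 CPM at 24 h, 47.7 and 49.5 CPM at 48 h, and 50.3 and 62.6 CPM at 96 h. Like NME1 it was lowest at 48 h, where its log2 fold change was -0.63 (adjusted p = 0.000362), against -0.42 at 96 h (adjusted p = 0.00598). The test of 96 h against 48 h called 0 of the 3 transporters, where it called 0.0366% of all genes. The 48 h call of SLC29A1 held without any single library. The 12 h call was lost without either 12 h library (up to 0.213), the 24 h call without 24 h replicate 2 (0.0658) and the 96 h call without 96 h replicate 1 (0.165).

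**Figure D3:**
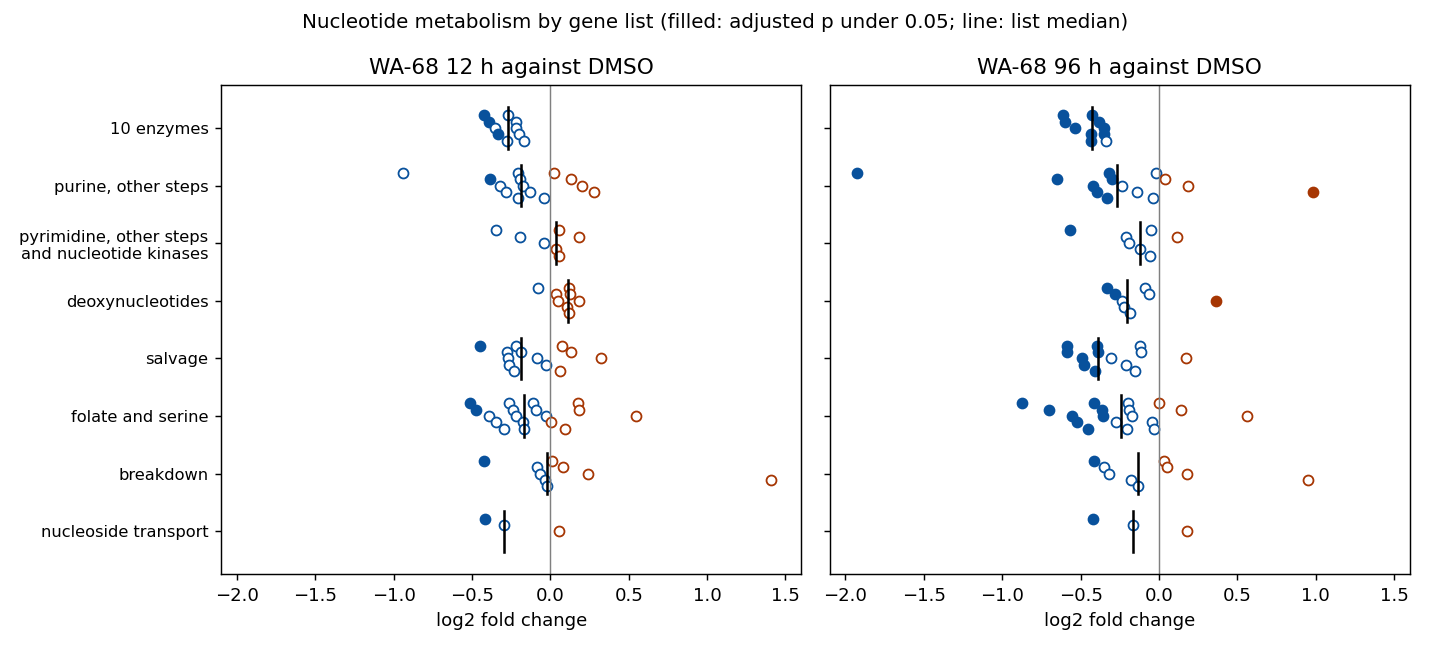
Log2 fold change against DMSO (x axis) of the tested genes in each list of nucleotide metabolism (rows), with a panel for 12 h and a panel for 96 h. Filled points have an adjusted p under 0.05 and the vertical line in a row is the list's median. The 10 enzymes lie wholly below 0 in both panels, while the deoxynucleotide genes have medians of 0.11 at 12 h and -0.20 at 96 h.

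MYC, the transcription factor named above and chosen with earlier results of these data known, fell at all 4 times. It was counted at 280.5 and 329.8 CPM in DMSO, 144 and 136 CPM at 12 h, 142 and 129.7 CPM at 24 h, 150.5 and 122 CPM at 48 h, and 109.9 and 142 CPM at 96 h. All 8 WA-68 libraries lay far below both controls, the 12 h pair included. The log2 fold change was -1.12 at 12 h (adjusted p = 4.93e-06, edgeR), -1.17 at 24 h (2.75e-06), -1.16 at 48 h (1.46e-06) and -1.28 ± 0.118 at 96 h (SE, 1.34e-07), and these calls held without any single library. MYC's part in the enzymes' values was not tested.

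Over the 10 libraries, the enzymes' mean log2 CPM, each centred on its own mean, was 0.27 and 0.33 log2 units in DMSO and 0.06 and -0.03 log2 units at 12 h. It was 0.01 and -0.11 log2 units at 24 h, -0.10 and -0.13 log2 units at 48 h, and -0.16 and -0.14 log2 units at 96 h. Each enzyme was set against the mean of the other 9, as a description over libraries that share their 5 conditions. Pearson's r was 0.96 for UMPS, 0.94 for GART, 0.94 for CTPS1, 0.91 for CAD, 0.91 for PAICS, 0.90 for ATIC and 0.83 for DHODH, and lower for NME1 (0.74), PPAT (0.59) and IMPDH2 (0.58). Among 8578 other genes of at least 20 CPM, those most like the enzymes' mean were URB1 (0.98), KDM1A (0.98), EIF3B (0.98), SNHG17 (0.98), SLC19A1 (0.98) and PFAS (0.98). URB1 is a ribosome biogenesis factor, KDM1A a histone demethylase, EIF3B a subunit of a translation initiation factor and SNHG17 a small nucleolar RNA host gene. PFAS and SLC19A1 belong to the purine and folate lists. That these genes were low where the enzymes were low follows from how they were chosen. At 96 h these 6 genes were lower by between 0.27 (KDM1A) and 0.82 (SNHG17) on the log2 scale, KDM1A only while all 10 libraries were in the fit (adjusted p = 0.0426, and up to 0.164 without 1 library). MYC ranked 40 by the same measure (0.94).

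**Figure D4:**
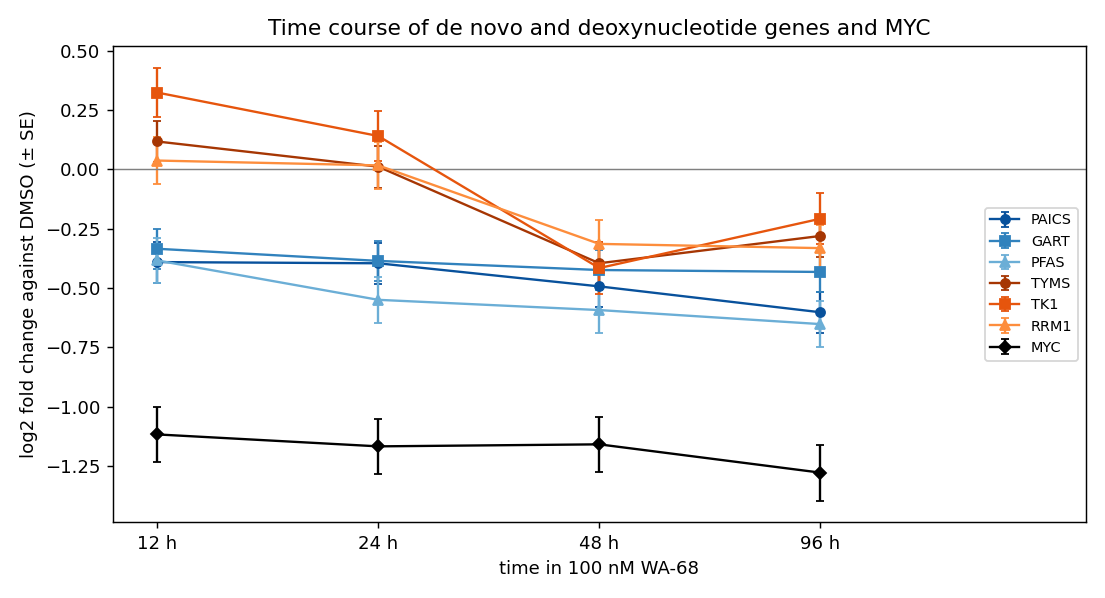
Log2 fold change against DMSO (y axis, ± SE) by time in 100 nM WA-68 (x axis) for the purine enzymes PAICS, GART and PFAS, the DNA precursor genes TYMS, TK1 and RRM1, and MYC. MYC is at -1.12 at 12 h, the 3 purine enzymes lie below 0 throughout, and TYMS is above 0 at 12 h (0.12) and below it at 48 h (-0.40).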

How the data were processed

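RNA-seq counts of 10 libraries were analysed. Per the labels, libraries were stranded, poly(A) selected and read from both ends (NovaSeq X). Per the submitters' processing notes the tools were bcl2fastq, FastQC, Trim Galore, cutadapt, STAR and featureCounts, with GRCh38 as the genome. Not given in the sources used here are the tool versions, annotation release, strand option and the rule for reads with several alignments. The deposited table holds the authors' raw read counts for 63140 genes, as whole numbers with no normalization, and 62541 identifiers matched a symbol. Strand and multi-mapping choices could move counts between overlapping or near-identical genes.

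Genes were kept by filterByExpr, library sizes were scaled by TMM, and 1 mean per group was fitted to all 10 libraries with edgeR 4.0.16 (R 4.3.3, quasi-likelihood F test, Benjamini-Hochberg, adjusted p under 0.05). Residual and prior degrees of freedom were 5 and 18.5, and the biological coefficient of variation common to all genes was 7.17%. SE is the absolute log2 fold change divided by the square root of F. The steps were tested on simulated data. The p-values measure the spread between labelled biological replicates of 1 line, and at 2 per group an exact permutation test cannot reach 0.05. Gene positions and exon lengths are from GENCODE 29 and promoter windows from RefSeq (GRCh38.p14).

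The enzymes, MYC and 7 pathway lists (84 genes, 72 tested) were chosen with earlier results of these data known. Genes named were the 10 enzymes, MYC, up to 4 genes per list with the smallest joint adjusted p (where none was called, the 2 most abundant), and the 6 genes most like the enzymes' mean; CTPS2 was named as the paralog after its values were seen. Alternatives were other scalings, filters, DESeq2 1.42.0, limma-voom (limma 3.58.1), the replicate number as a block, the 4 compared libraries alone, a threshold of 0.01, each library left out, and DMSO replicate 2 with 96 h replicate 2 left out; a correction for GC content was added after seeing the data. The DMSO pair is shared by the 4 comparisons with DMSO, which are therefore not independent.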

Additional observations from a re-analysis of the deposited data

Results flagged for a closer look

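Among the 72 tested genes of the other lists, the named genes below passed edgeR's test between WA-68 times (Benjamini-Hochberg over all genes), which called 0.757% of all genes at 48 h against 24 h and 4.13% at 96 h against 12 h. Whether these lists differ from the 10 enzymes, of which 0 passed, was not tested. These comparisons set group means of WA-68 cultures against each other, without the DMSO mean. With no DMSO culture known to match each time, time in WA-68 and time in culture cannot be told apart. At 48 h against 24 h the log2 fold change was -0.41 for TYMS (adjusted p = 0.0293) and -0.56 for TK1 (adjusted p = 0.0142). For TYMS and TK1 both 48 h libraries lay below both 24 h libraries, as they did for 21.4% of all tested genes. At 96 h against 12 h it was -0.40 for TYMS (adjusted p = 0.00959), -0.37 for RRM2 (adjusted p = 0.0216), -0.37 for RRM1 (adjusted p = 0.0347), -0.53 for TK1 (adjusted p = 0.0044) and -0.66 for APRT (adjusted p = 0.00161). ADSS1 was higher at 96 h, at 1.26 (adjusted p = 0.0395), with 4.96 and 2.95 CPM at 96 h and 2.24 and 1.15 CPM at 12 h; its call was lost without either 12 h library, 24 h replicate 1, 48 h replicate 1 or 96 h replicate 1 (adjusted p up to 0.354). With 1 library left out, APRT kept its call. At 48 h against 24 h TYMS lost its call without any single 12, 24 or 48 h library (up to 0.44) and TK1 without any single 24 or 48 h library (up to 0.427). At 96 h against 12 h TYMS (0.283) and TK1 (0.218) lost theirs without 12 h replicate 1, RRM2 without 12 h replicate 1 or 96 h replicate 2 (up to 0.429), and RRM1 without any single WA-68 library (up to 0.515).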

How the results depend on the processing

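Under all 22 alternative fits the median log2 fold change of the 10 enzymes against DMSO stayed below 0 at each time, between -0.47 and -0.21. The number called lower at 12, 24, 48 and 96 h, with 3, 4, 7 and 9 as reported, moved with several choices. Library size only gave 1 (12 h) and 4 (48 h). With no filter it was 5 at 12 h. With the GC correction it was 6 at 12 h and 8 at 24 h, and with the GC correction and the replicate block together again 6 and 8. Only the 4 libraries compared gave 2 (24 h), 4 (48 h) and 4 (96 h). An adjusted p under 0.01 left 0 (12 h), 4 (48 h) and 5 (96 h). Leaving out 1 library gave 0 to 3 at 12 h, 0 to 5 at 24 h, 2 to 8 at 48 h and 5 to 9 at 96 h. DESeq2 gave 3, 4, 5 and 7. Without DMSO replicate 2 and 96 h replicate 2 together the counts were 4, 5, 7 and 7. With the replicate number as a block they were 3, 3, 6 and 9. Replicate deviations of same-numbered libraries correlated between -0.12 and 0.19. These low values show no clear pairing by number and cannot exclude shared handling. Of 23 calls of single enzymes 4 held under every alternative fit, PAICS at 48 and 96 h, GART at 96 h and NME1 at 48 h. With 1 library left out, the log2 fold change of IMPDH2 ran from -0.464 to 0.0644 at 12 h and from -0.503 to 0.0257 at 24 h. It was above 0 without DMSO replicate 2, and also without that library and 96 h replicate 2 together (0.06 at 12 h and 0.03 at 24 h). The log2 fold change of NME1 at 96 h against 12 h ran from -0.0879 without 96 h replicate 2 to 0.239 without 96 h replicate 1, and was -0.08 without DMSO replicate 2 and 96 h replicate 2. No other enzyme changed sign against DMSO, and no called result of another named gene did. Between WA-68 times, where no enzyme was called, signs of other enzymes turned too: at 24 h against 12 h 9 were below 0, and 5 without 24 h replicate 2. The cause of these shifts was not tested beyond what fewer libraries or a stricter threshold imply. Over all genes, calls lower and higher at 12, 24, 48 and 96 h were 315 and 201, 369 and 220, 882 and 657, and 1123 and 1006. With library size only they were 173 and 287, 205 and 301, 543 and 826, and 812 and 1228, and with upper-quartile factors 643 and 808 at 48 h and 909 and 1236 at 96 h. The median of all genes moved by at most 0.064 in any of 3 other scalings. DHODH and IMPDH2 were the enzymes with the lowest CPM, and the DMSO replicates of IMPDH2 lay far apart (20.8 and 29.9 CPM).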
